A study of Mus musculus with 6 samples.

Results

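The genes described here are 37 genes of the unfolded protein response and of protein folding in the endoplasmic reticulum (ER), measured in the livers of 6 male mice. They were taken from a fixed list of gene names and not by a cutoff on their values, but the list was chosen with earlier results of these data known. All 37 of 37 had at least 1 named probe set and passed the filter on low signals, out of 18193 genes with a named probe set and 12598 tested. Of a gene's probe sets, the brightest one on average was used. By role, 11 are ER chaperones and their co-factors, 6 form or pass on disulfide bonds, 9 belong to ER-associated degradation, 5 to the entry of proteins into the ER, and 6 are sensors or transcription factors.

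The 3 control mice were wild type (WT), and the 3 mutant mice (ChLO) carried floxed alleles of Chrebp, now named Mlxipl, together with an albumin-Cre transgene, which is active in hepatocytes. Mlxipl encodes ChREBP, a transcription factor of hepatocytes that carbohydrate activates. Both groups were 12 weeks old and ate a diet of 60% sucrose for 1 week, so no group without sucrose enters the comparison. The sources used here do not say whether the WT mice carried a floxed allele or Cre.

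Secreted and membrane proteins enter the ER through the Sec61 channel, fold there with the help of chaperones and disulfide isomerases, and are pulled back to the cytosol and degraded when folding fails. When unfolded proteins build up, the sensors IRE1 (gene Ern1), ATF6 and PERK switch on the unfolded protein response. IRE1 splices the mRNA of Xbp1 and ATF6 is cut to release a transcription factor, and both products induce chaperones and degradation genes. PERK slows translation and raises ATF4 and CHOP. Hepatocytes are rich in ER because they secrete most plasma proteins.

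The deposited arrays share 1 trimmed mean signal, and their medians lay between 6.38 and 6.60 log2 units. The deleted gene Mlxipl read 12.61, 12.56 and 12.59 in WT 1 to 3 and 10.34, 11.22 and 11.48 in ChLO 1 to 3, a difference of -1.57 (SE 0.28, limma adjusted p = 0.185), and the place of its probes relative to the floxed exons was not checked. Of 17 tested hepatocyte markers, 17 had a lower mean in ChLO, where 43.5% of all genes did, with a median difference of -0.32, and 0 passed an adjusted p of 0.05. With quantile normalization 12 of 17 were lower (median -0.11) and with spike-in scaling 14 of 17 (median -0.06). Alb, the gene of albumin, read from 15.31 to 15.85 over all arrays. ChLO 1 and ChLO 2 stood apart from the other 4 arrays in the summed linear signal of stellate, myeloid and cholangiocyte markers. Of the cholangiocyte markers, Cldn4 and Cldn7 had WT means of 5.38 and 5.25, under the filter of 5.50. They were thus tested only because of their ChLO signals. Other cholangiocyte markers differed: Epcam in ChLO 1 (6.01) lay inside the WT range, and in Epcam and Krt19 ChLO 3 was also above every WT array. For 15 endothelial markers the sum was 14628 to 16904 in WT and 15248, 20456 and 17569 in ChLO 1, 2 and 3. In B and plasma cell markers and in acinar markers, ChLO 3 alone was above the WT range of the sum. For 15 stellate cell markers the sum was 36871 and 46255 in ChLO 1 and ChLO 2, against 18603 in ChLO 3 and 16335 to 23275 in WT. For 16 myeloid markers it was 40599 and 37812 in ChLO 1 and ChLO 2, against 19593 in ChLO 3 and 20949 to 22224 in WT.

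None of the 37 ER genes passed the test between genotypes. With limma, 0 of 37 passed an adjusted p of 0.05 over all 12598 genes tested, where 0.00% of all genes passed. At an unadjusted p under 0.05, 0 of 37 were higher in ChLO, against 5.46% of all genes, and 3 of 37 (8.11%) were lower, against 3.50% of all genes. Those 3 were Derl2, Ero1lb and Ern1. The mean signal was lower in ChLO for 29 of 37 (78.4%), against 43.5% of all genes, for 21 of 37 (56.8%, against 45.1%) without ChLO 3, and for 12 of 37 (32.4%, against 21.1%) with arrays scaled to the spike-in controls. The median difference over the 37 genes was -0.13 log2 units (ChLO minus WT, as are all differences here), beside 0.06 over all genes tested. The direction of that median held with quantile normalization (-0.09) and equal array medians (-0.12). With spike-in scaling it was 0.12, where all genes moved to 0.31.

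The intervals limit how large a difference could be. The 95% interval of the difference lay within 1 log2 unit of 0, a factor of 2 in linear signal, for 27 of 37 genes (73.0%), against 52.5% of all genes tested. The widest intervals belonged to Creld2 (-1.25 to 1.42), Derl3 (-1.34 to 1.20) and Sdf2l1 (-1.04 to 1.31), and the interval held 0 for 34 of 37 genes. In bulk liver RNA, fewer cells of a type and less RNA per cell cannot be told apart.

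**Figure D1:**
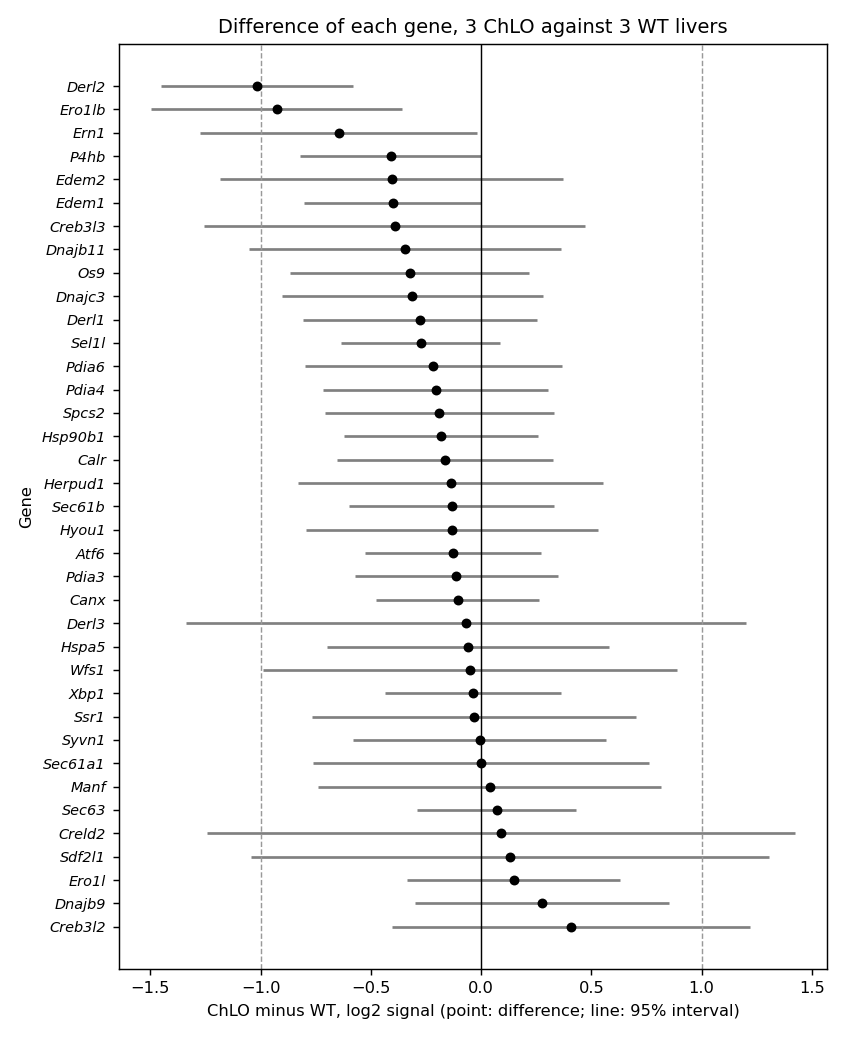
Difference between 3 ChLO and 3 WT livers for each of the 37 ER genes, on the horizontal axis in log2 signal, with 1 gene per line (point, limma difference; grey line, 95% interval; dashed lines, 1 log2 unit either side of 0). The intervals of Derl2, Ero1lb and Ern1 lie below 0, and those of 27 genes lie between the dashed lines.

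The larger pattern lay between arrays within a genotype. ChLO 3 was singled out after its values were seen. ChLO 3 read below every WT array for 25 of 37 ER genes (67.6%), where it did so for 24.0% of all genes tested, and above every WT array for 2 of 37 (5.41%), against 31.0% of all genes. ChLO 1 was above every WT array for 11 of 37 (29.7%, against 38.8% of all genes) and below for 8 of 37 (21.6%, against 29.2%). ChLO 2 was above for 5 of 37 (13.5%, against 31.5%) and below for 11 of 37 (29.7%, against 25.0%). Taken as the median of the distance from the WT mean, the 37 genes stood at 0.10, -0.13 and -0.45 in ChLO 1, 2 and 3. The WT arrays stood at 0.12, -0.20 and 0.08. ChLO 3 was the lowest of the ChLO arrays for 27 of 37 genes (73.0%), against 39.6% of all genes. WT 2 was the lowest of the WT arrays for 29 of 37 (78.4%), against 30.1%.

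ChLO 3 was the mutant liver with a stellate marker sum inside the WT range, and its myeloid sum lay under that range. It also had the lowest median of the 37 ER genes, but not in every role. Among sensors and factors the median was -0.24 in ChLO 2 and -0.10 in ChLO 3. ChLO 3 was the lowest ChLO array for 4 of 9 degradation genes and 2 of 6 sensors and factors, against 39.6% of all genes. Its hepatocyte markers lay 0.15 below the WT mean in the median, against 0.47 and 0.42 below in ChLO 1 and ChLO 2. The Actb probe sets at the 3′ end exceeded those at the 5′ end, a measure of how intact the RNA is, by 1.46 log2 units in ChLO 3. ChLO 1 and ChLO 2 gave 0.84 and 1.03, and the WT arrays lay from 1.13 to 1.38. The highest WT value was that of WT 2, the lowest WT array for 29 of 37 ER genes. The same distance for Gapdh was -0.14 in ChLO 3, inside the WT range of -0.31 to -0.13. The part of RNA integrity or of the cell markers in the low readings was not tested. The count of 25 was 22 with spike-in scaling, where 18.0% of all genes lay below, 22 with equal array medians (23.2%) and 26 with quantile normalization (24.7%).

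**Figure D2:**
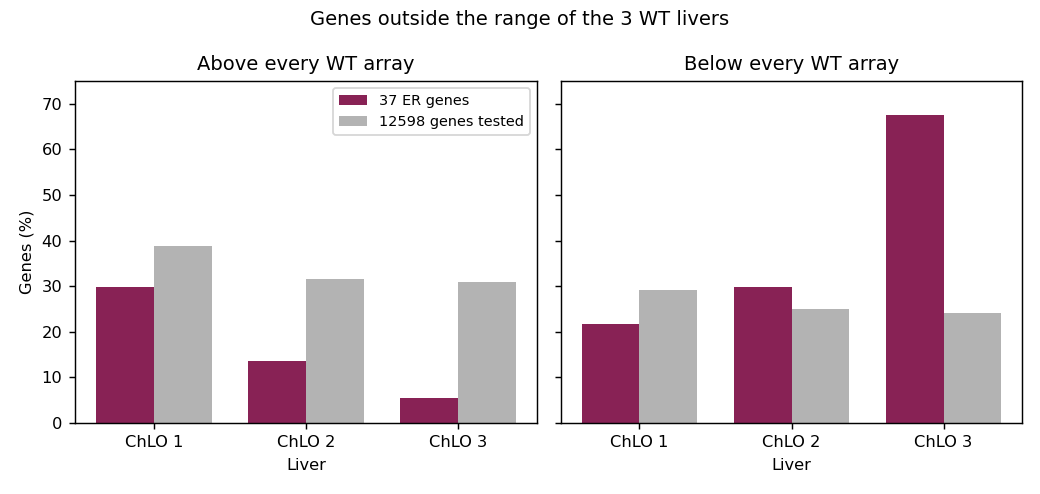
Share of genes whose signal lay above (left) or below (right) all 3 WT arrays, in percent, for each ChLO liver, with the 37 ER genes in purple and the 12598 genes tested in grey. In ChLO 3, 67.6% of the ER genes lay below every WT array, beside 24.0% of all genes.

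Hspa5, the gene of BiP, is the main Hsp70 chaperone of the ER and holds the 3 stress sensors inactive. It read 14.56, 14.31 and 14.68 in WT 1, 2 and 3 and 14.89, 14.61 and 13.87 in ChLO 1, 2 and 3. ChLO 1 was thus above every WT array and ChLO 3 below every one. The difference was -0.06 (SE 0.28, limma adjusted p = 0.957), and 0.24 without ChLO 3. Its other 2 probe sets past the filter differed by 0.08 and 0.09.

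Hsp90b1 encodes GRP94, the Hsp90 of the ER, and read 14.06, 14.06 and 14.54 in WT and 14.07, 14.11 and 13.94 in ChLO. Calr, calreticulin, which binds glycoproteins while they fold, read 13.69, 13.63 and 14.03 in WT and 13.94, 13.58 and 13.34 in ChLO. Its membrane-bound relative Canx, calnexin, read 13.62, 13.55 and 13.83 in WT and 13.62, 13.58 and 13.49 in ChLO. In all 3 of these genes ChLO 3 was the lowest of the 6 arrays, and the differences were -0.18 (SE 0.19), -0.16 (SE 0.21) and -0.11 (SE 0.16).

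Hyou1, an Hsp70-related exchange factor of BiP, read 11.64, 10.70 and 11.35 in WT and 11.47, 11.07 and 10.74 in ChLO, so the groups overlapped throughout. The difference was -0.13 (SE 0.29), and its dimmer probe sets gave -0.59 and -0.67, both with overlap. Of the J-domain partners of BiP, Dnajb11 read 11.06, 10.62 and 11.51 in WT and 10.97, 11.02 and 10.16 in ChLO. Dnajb9 read 12.92, 12.37 and 12.39 in WT and 13.06, 13.07 and 12.39 in ChLO, with ChLO 1 and ChLO 2 above every WT array and a difference of 0.28 (SE 0.25). Dnajc3, which also restrains PERK, read 13.16, 12.42 and 13.25 in WT and 12.85, 12.69 and 12.36 in ChLO, a difference of -0.31 (SE 0.26). All 5 probe sets of Dnajc3 were lower in ChLO, by differences from -0.72 to -0.31, and in 3 of them every ChLO array lay below every WT array.

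Among the chaperone genes, the ChLO arrays spread most in 3 small stress-induced factors. Sdf2l1, a partner of Dnajb11, read 10.76, 9.69 and 11.14 in WT and 11.52, 10.77 and 9.70 in ChLO. Creld2, a folding factor with disulfide activity, read 10.67, 9.70 and 11.22 in WT and 11.03, 11.47 and 9.36 in ChLO. Manf, a secreted stress protein, read 12.90, 12.67 and 12.75 in WT and 13.44, 13.00 and 12.01 in ChLO. ChLO 3 was the lowest ChLO array for all 3 of these genes, as for all 11 chaperone genes, against 39.6% of all genes. The ranges over the ChLO arrays were 1.82, 2.12 and 1.43 log2 units, and over the WT arrays 1.45, 1.53 and 0.23. Differences were 0.13 (SE 0.51), 0.09 (SE 0.58) and 0.04 (SE 0.34), and without ChLO 3 they became 0.61, 0.72 and 0.44. Without ChLO 3, Manf and Dnajb9 were the only ER genes higher at an unadjusted p under 0.05, a threshold that 12.4% of all genes then passed in that direction, and neither passed an adjusted p of 0.05 (0.244 and 0.236, limma).

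**Figure D3:**
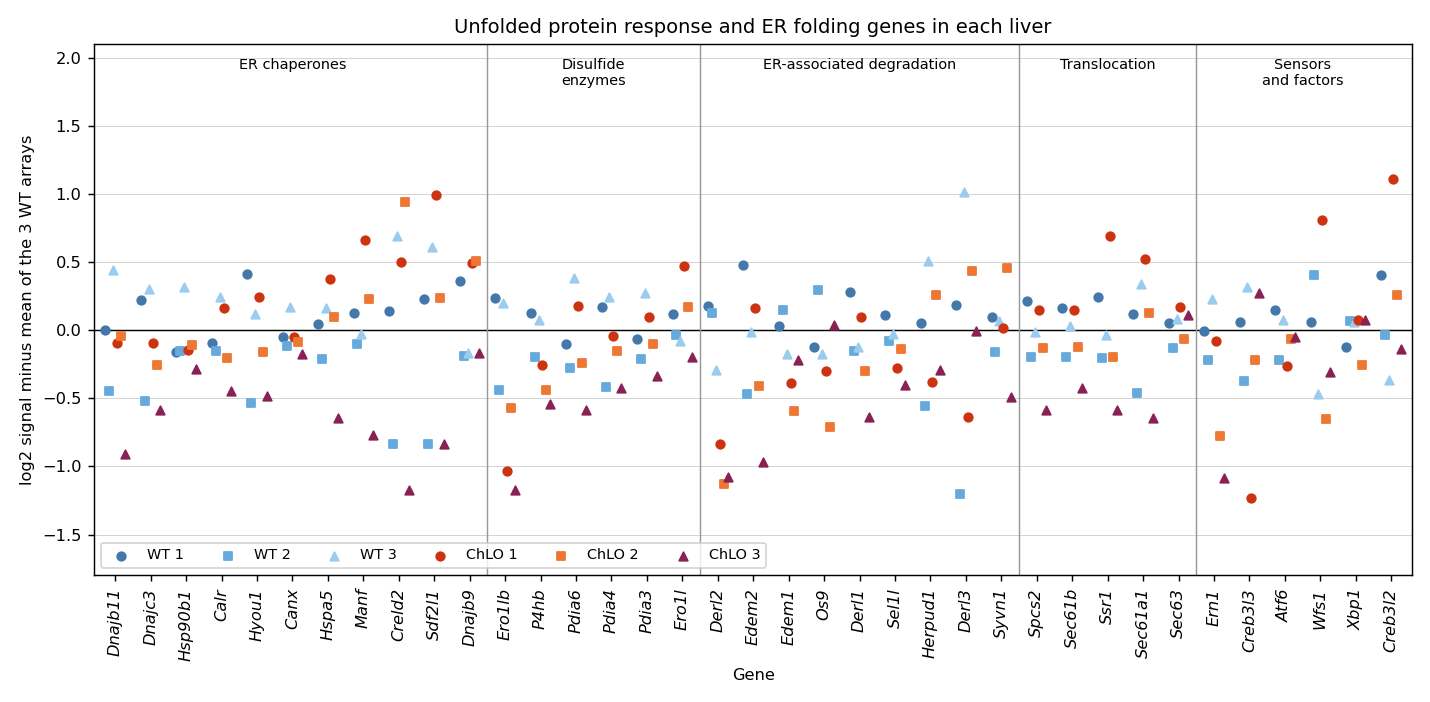
Log2 signal minus the mean of the 3 WT arrays (vertical axis) for each of the 37 ER genes (horizontal axis, grouped by role) in every array, with WT in blue and ChLO in red, orange and purple. ChLO 3 (purple triangles) is the lowest ChLO array for all 11 chaperones and all 6 disulfide genes, and Derl2 is low in all 3 ChLO arrays.

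Some of these genes hold a known promoter element. The ER stress response element (ERSE) is bound by NF-Y at CCAAT and by cleaved ATF6 or spliced XBP1 at CCACG. The RefSeq promoter windows (mouse build GRCm38.p6, 250 bases before to 50 bases after the start of each gene) were searched on both strands for ERSE, written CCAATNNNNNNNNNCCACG, for ERSE-II, written ATTGGNCCACG, and for the XBP1 element UPRE, written TGACGTGG. The other strand of UPRE also holds CCACG. Windows were at hand for 32 of the 37 genes, all but Hyou1, Manf, Derl1, Sec61a1 and Atf6, and no matches overlapped in them. ERSE stood in a window of 10 of the 32 genes, against 0.137% of 27025 genes with windows, ERSE-II in 2 of 32, against 0.0444%, and UPRE in 0 of 32, against 0.714%. Counted by window, of 32851, the shares were 0.119%, 0.0365% and 0.676%. For 20 of the 32 genes no window held any of the 3 motifs. The ERSE matches follow, each written in the direction of the motif with the fixed letters in capitals.
Calr: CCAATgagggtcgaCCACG
Canx: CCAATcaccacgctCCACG
Creld2: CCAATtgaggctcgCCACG
Derl3: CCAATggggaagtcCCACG
Dnajc3: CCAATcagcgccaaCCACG
Ero1lb: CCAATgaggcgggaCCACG
Hsp90b1 distal: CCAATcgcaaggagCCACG
Hsp90b1 proximal: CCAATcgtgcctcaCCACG
Hspa5: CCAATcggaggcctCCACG
Pdia6: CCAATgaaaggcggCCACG
Syvn1: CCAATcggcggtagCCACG

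The ERSE-II matches, with the same use of capitals, were in a chaperone and in a degradation gene.
Dnajb11: ATTGGcCCACG
Herpud1: ATTGGgCCACG

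The 250 bases before the start of Hspa5 (chr2:34771840-34772089, plus strand), Hsp90b1 (chr10:86705445-86705694, minus strand) and Ero1lb (chr13:12565633-12565882, plus strand) follow 5′ to 3′ on the gene's strand. Capitals mark the fixed letters of ERSE, which read in reverse complement in Ero1lb and in the second match of Hsp90b1. Hspa5 is shown as the standard target, Hsp90b1 as the only one of the 32 with a pair of ERSE matches, and Ero1lb as the ERSE gene with the lowest difference. The ERSE match begins at position -65 from the start in Hspa5 and at -201 in Ero1lb.
Hspa5: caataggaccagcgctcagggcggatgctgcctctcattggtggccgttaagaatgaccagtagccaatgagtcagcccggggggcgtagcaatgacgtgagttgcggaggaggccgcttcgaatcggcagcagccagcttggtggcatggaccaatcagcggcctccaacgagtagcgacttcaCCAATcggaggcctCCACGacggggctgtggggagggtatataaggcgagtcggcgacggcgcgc
Hsp90b1: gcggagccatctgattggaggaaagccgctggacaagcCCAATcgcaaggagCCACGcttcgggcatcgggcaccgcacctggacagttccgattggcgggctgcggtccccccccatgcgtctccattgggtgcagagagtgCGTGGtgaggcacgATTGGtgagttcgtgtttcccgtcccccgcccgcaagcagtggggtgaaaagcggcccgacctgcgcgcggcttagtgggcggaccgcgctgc
Ero1lb: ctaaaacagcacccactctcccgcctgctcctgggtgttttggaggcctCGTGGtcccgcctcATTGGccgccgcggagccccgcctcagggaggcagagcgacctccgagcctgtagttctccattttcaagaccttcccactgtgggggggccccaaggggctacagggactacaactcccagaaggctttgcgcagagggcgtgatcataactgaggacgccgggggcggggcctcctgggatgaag

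Genes with ERSE and genes without an exact match to any motif gave like median differences, but less like medians in single arrays. Elements that depart from the fixed letters were not searched for. The 10 genes with ERSE had a median difference of -0.13, and the 20 genes whose window held none of the 3 motifs had -0.16. In ChLO 3 the medians of the distance from the WT mean were -0.54 and -0.37, and in ChLO 1 they were -0.02 and 0.12. ChLO 3 was below every WT array for 9 of the 10 genes with ERSE and for 12 of the 20 without a match, against 24.0% of all genes. ChLO 1 was above every WT array for 1 of the 10 and for 8 of the 20, against 38.8% of all genes. The differences between genes with and without a match were not tested, and a match is a description of the letters, not evidence of binding.

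Among the disulfide enzymes, Ero1lb stood lowest. Its product ERO1 beta, a pancreas-rich oxidase, reoxidizes protein disulfide isomerases. It read 12.11, 11.44 and 12.08 in WT and 10.84, 11.31 and 10.70 in ChLO, so every ChLO array was below every WT array. The difference was -0.93 (SE 0.25, 95% interval -1.50 to -0.36), or 1.90-fold lower, with an unadjusted p of 0.00567 and a limma adjusted p of 0.410. A second probe set gave -0.82 and did not overlap between groups either. A dim one, with a mean of 6.73, gave -0.27 with overlap. Leaving out 1 array at a time gave differences from -1.15 to -0.80. Of 13 acinar cell markers with a named probe set, 5 passed the filter, and their summed linear signal was 1934 to 4082 in WT and 1523 to 6646 in ChLO, with the lowest value in ChLO 1 and the highest in ChLO 3. Most of that sum came from Cela1. In 2 of the 5, every ChLO array was below every WT array, against 6.19% of all genes. The other 3 had a higher mean in ChLO, and the median difference of the 5 was 0.04. Cel read 6.49, 6.52 and 6.41 in WT and 4.91, 5.81 and 5.87 in ChLO (-0.94, SE 0.45), and Prss2 differed by -0.61 (SE 0.36), both among the dim signals. Among those under the filter were Cpa1 and Ctrb1. The part of acinar RNA in the Ero1lb values was not tested.

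The second oxidase, Ero1l (annotated as Ero1a), read 10.18, 10.03 and 9.98 in WT and 10.53, 10.23 and 9.86 in ChLO, with a difference of 0.15 (SE 0.21). The unlike values of the 2 oxidases were not compared by a test. P4hb, the founding protein disulfide isomerase, read 14.79, 14.47 and 14.74 in WT and 14.41, 14.23 and 14.13 in ChLO. Its groups did not overlap, and the difference was -0.41 (SE 0.18, unadjusted p = 0.0501, limma adjusted p = 0.556).

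The 3 other isomerases overlapped between the groups. Pdia3, which works with calnexin and calreticulin, read 13.60, 13.45 and 13.94 in WT and 13.76, 13.57 and 13.32 in ChLO. Pdia4 read 11.31, 10.73 and 11.38 in WT and 11.10, 10.99 and 10.72 in ChLO. Pdia6, which also dampens IRE1, read 12.30, 12.12 and 12.78 in WT and 12.57, 12.16 and 11.82 in ChLO. ChLO 3 was below every WT array for all 6 disulfide genes, against 24.0% of all genes.

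In ER-associated degradation, all 9 genes had a lower mean in ChLO, with a median difference of -0.28. With equal array medians 8 of the 9 were lower, and with spike-in scaling 6 of the 9, with a median of -0.03. Derl2, a derlin of the channel through which misfolded proteins leave the ER, had the smallest p of the 37 genes. It read 13.61, 13.56 and 13.14 in WT and 12.60, 12.30 and 12.36 in ChLO, so the groups were apart. The difference was -1.02 (SE 0.19, 95% interval -1.45 to -0.58), or 2.02-fold lower, with an unadjusted p of 0.00069 and a limma adjusted p of 0.198. The second probe set of Derl2 read 10.82, 10.91 and 10.49 in WT and 9.58, 9.57 and 9.65 in ChLO, a difference of -1.14. The adjusted p of Derl2 lay between 0.0545, without ChLO 3, and 0.663 over the alternatives, and single-array omissions gave differences from -1.16 to -0.93.

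The other derlins overlapped between the groups. Derl1 read 12.28, 11.85 and 11.88 in WT and 12.10, 11.71 and 11.37 in ChLO, a difference of -0.28 (SE 0.23), but 2 of its 4 probe sets were higher in ChLO, by 0.41 and 0.11. Derl3, the stress-induced derlin, read 8.31, 6.93 and 9.15 in WT and 7.50, 8.56 and 8.12 in ChLO, so the WT arrays alone spanned 2.22 log2 units. Whether the derlins differ from each other was not tested.

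Sel1l and Syvn1 encode the scaffold and the ubiquitin ligase (HRD1) of the main degradation complex. Sel1l read 11.88, 11.69 and 11.74 in WT and 11.49, 11.63 and 11.37 in ChLO, without overlap, with a difference of -0.27 (SE 0.16, limma adjusted p = 0.630). All 5 probe sets of Sel1l lay lower in every ChLO array than in every WT array, with differences from -0.76 to -0.27. Syvn1 read 11.19, 10.93 and 11.17 in WT and 11.11, 11.56 and 10.60 in ChLO, a difference of -0.01 (SE 0.25).

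Edem1, a mannosidase-like protein that hands glycoproteins to degradation, read 12.24, 12.36 and 12.03 in WT and 11.82, 11.62 and 11.99 in ChLO. Neither of its 2 probe sets overlapped between groups (-0.40, SE 0.17, limma adjusted p = 0.557, and -0.37). Its relative Edem2 read 11.25, 10.30 and 10.76 in WT and 10.93, 10.36 and 9.80 in ChLO, with a difference of -0.41 (SE 0.34). Os9, a lectin of the same route, read 11.27, 11.69 and 11.21 in WT and 11.09, 10.68 and 11.43 in ChLO, so ChLO 1 and ChLO 2 were below every WT array and ChLO 3 was not. Herpud1, a stress-induced organizer of the complex, read 13.75, 13.14 and 14.20 in WT and 13.31, 13.95 and 13.40 in ChLO, with all ChLO arrays inside the WT range.

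Over the 37 genes, every ChLO array was below every WT array for 5 (13.5%), namely Derl2, Ero1lb, P4hb, Sel1l and Edem1, against 6.19% of all genes, and above for 0, against 9.04%. This was not particular to the 37 genes: 9 of 17 hepatocyte markers and 6 of 34 genes of ER to Golgi transport were below too. Of other genes of folding, entry and degradation, 3 of 29, 1 of 24 and 0 of 26 were below. The count of 5 was 1 with spike-in scaling, where 2.17% of all genes were below, and 3 with equal array medians (5.50%). With 1 array fewer, more genes of any kind do not overlap. The count was 11 without WT 2 (9.57% of all genes), 8 without ChLO 1 (9.37%) and 6 without ChLO 3 (16.0%). Counted by probe set, 16 of 91 past the filter were below in this sense and 1 was above, while the shares over all probe sets past the filter were 6.54% and 7.64%. Probe sets of 1 gene read the same RNA and are not replicates. Of the 54 other probe sets past the filter, 38 had the sign of the probe set used and 16 the opposite one, spread over 8 of 26 genes.

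**Figure D4:**
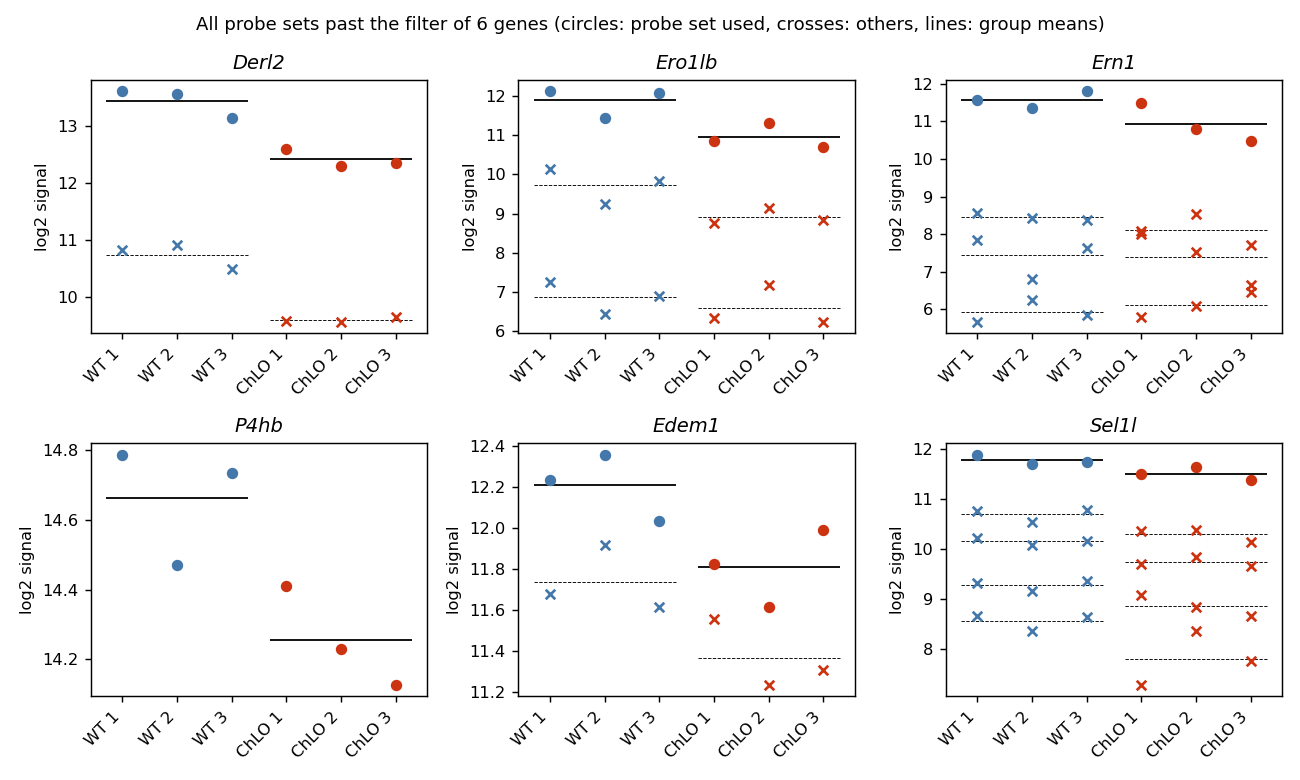
Log2 signal (vertical axis) in each WT (blue) and ChLO (red) array for every probe set past the filter of 6 ER genes, with circles for the probe set used, crosses for the others and lines for the group means. For both probe sets of Derl2 and Edem1 and all 5 of Sel1l, every ChLO array lies below every WT array.

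In the entry machinery, the probe sets used overlapped between the groups for all 5 genes. Sec61a1, the channel subunit, read 12.89, 12.30 and 13.10 in WT and 13.29, 12.89 and 12.12 in ChLO, with a difference of 0.00 (SE 0.33). Ssr1, of the translocon-associated complex, read 12.89, 12.44 and 12.61 in WT and 13.34, 12.45 and 12.06 in ChLO. For both genes ChLO 1 was above every WT array and ChLO 3 below every one. The other 5 probe sets of Sec61a1 were lower in ChLO, from -0.34 to -0.16, all with overlap. The 3 dimmer probe sets of Ssr1 gave 0.02, -0.57 and -0.91, the last without overlap between the groups.

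Sec61b, a small channel subunit, read 13.74, 13.38 and 13.61 in WT and 13.72, 13.45 and 13.15 in ChLO. Spcs2, of the signal peptidase, read 12.53, 12.11 and 12.29 in WT and 12.46, 12.18 and 11.72 in ChLO. Sec63, which couples the channel to BiP, read 11.76, 11.58 and 11.78 in WT and 11.87, 11.64 and 11.82 in ChLO. Of these 5 genes, Sec63 alone was not below every WT array in ChLO 3, where 24.0% of all genes were below. Its 5 probe sets differed in sign, from -0.37 to 0.11.

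The sensors and factors did not move together. Xbp1, the factor made active by IRE1, read 13.78, 13.98 and 13.97 in WT and 13.98, 13.65 and 13.98 in ChLO, with a difference of -0.04 (SE 0.17, 95% interval -0.44 to 0.36). Its 4 probe sets gave -0.10 to -0.03. These signals are not split here by spliced and unspliced mRNA, so IRE1 activity is not read from them. Atf6 read 10.89, 10.52 and 10.81 in WT and 10.48, 10.67 and 10.69 in ChLO, with a difference of -0.13 (SE 0.17). Its other probe sets gave -0.04 and 0.50, both with overlap.

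Ern1, the gene of IRE1, read 11.56, 11.34 and 11.80 in WT and 11.49, 10.79 and 10.48 in ChLO. ChLO 1 lay inside the WT range and the other 2 below it. The difference was -0.65 (SE 0.27, unadjusted p = 0.0453, limma adjusted p = 0.549), and it was -0.43 without ChLO 3 and -0.93 without ChLO 1. Its 3 other probe sets past the filter gave -0.35, -0.04 and 0.19, all with overlap.

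Creb3l3, the gene of CREBH, a liver factor of the ATF6 kind that acts on lipid genes, read 12.96, 12.53 and 13.22 in WT and 11.68, 12.69 and 13.18 in ChLO. ChLO 1 alone was below the WT arrays, and the difference of -0.39 (SE 0.37) became 0.03 without it. Creb3l2, a related factor that promotes secretion, read 9.27, 8.83 and 8.49 in WT and 9.97, 9.12 and 8.72 in ChLO, a difference of 0.41 (SE 0.35). Its second probe set gave 1.07 (SE 0.43), with overlap between the groups. Wfs1, an ER membrane protein that restrains ATF6, read 8.63, 8.98 and 8.10 in WT and 9.38, 7.92 and 8.27 in ChLO, with a difference of -0.05 (SE 0.41).

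Other genes of the secretory pathway, in 7 lists that hold none of the 37, had 0 genes past an adjusted p of 0.05. Of 29 tested genes of ER folding, 1 was higher and 1 lower at an unadjusted p under 0.05, where 5.46% and 3.50% of all genes were. The median of these 29 genes was -0.10. The 3 with the smallest p were Txndc15 at -0.63 (SE 0.16), Selenom at 1.19 (SE 0.44) and Fkbp7 at 0.52 (SE 0.23). Of 26 degradation genes, 0 were past that threshold and the median was -0.01, with Ube2j2 at 0.35 (SE 0.19), Selenos at 0.41 (SE 0.23) and Vcp, the ATPase that extracts substrates, at -0.30 (SE 0.19). Of 24 genes of protein entry 0 were past it with a median of 0.06, among them Tram1 at -0.44 (SE 0.20), Sec11c at -0.24 (SE 0.15) and Ssr3 at -0.33 (SE 0.22).

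Of 34 genes of N-glycosylation 0 were past the threshold with a median of -0.08, and Alg13 was at 0.51 (SE 0.26), Alg11 at -0.37 (SE 0.20) and Rpn2, of the oligosaccharyl transferase, at -0.36 (SE 0.21). The median of 34 genes of transport between ER and Golgi was -0.01. Of them, 3 were lower and 0 higher at that threshold, against 3.50% and 5.46% of all genes. These were Lman2 at -0.71 (SE 0.20), Lman1 at -0.52 (SE 0.17), both lectins that carry glycoproteins out of the ER, and Ergic3 at -0.40 (SE 0.17). Of 16 other stress factors, 1 was lower, Tmbim6, an ER membrane inhibitor of cell death, at -0.43 (SE 0.16), and 1 was higher, Casp12 at 0.95 (SE 0.39). Atf6b, a relative of Atf6, was at 0.60 (SE 0.31).

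These counts moved with 1 array, and so did the share of all genes. Without ChLO 3, 12.4% of all genes were higher at that threshold. Then 4 of 34 genes of N-glycosylation, 4 of 34 of ER to Golgi transport and 5 of 29 of ER folding were higher. With spike-in scaling, 14.8% of all genes were higher and 1.41% lower. Under that scaling 5 of 29 genes of ER folding and 3 of 26 of degradation were higher, and 0 of 34 of transport were lower.

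The PERK branch and the integrated stress response gave other values. Of 20 tested genes, 17 had a higher mean in ChLO, against 56.5% of all genes. At an unadjusted p under 0.05, 6 were higher, where 5.46% of all genes were, and 0 lower, where 3.50% were. The median difference was 0.46. The list medians were 0.82, 0.50 and 0.12 above the WT mean in ChLO 1, 2 and 3, whereas those of the 11 chaperones were 0.24, -0.04 and -0.59. Nupr1, whose product is a chromatin protein of the stress response, read 6.72, 3.83 and 4.75 in WT and 10.91, 9.07 and 6.70 in ChLO. Its WT mean of 5.10 lay under the filter of 5.50, so it was tested only because of its ChLO signals, and it is 1 of the 6. Atf3, a factor downstream of ATF4, was at 3.29 (SE 1.08) and Trib3, which inhibits Akt, at 2.04 (SE 0.62). ChLO 3 was the lowest ChLO array for all 3 of these genes. The count of 6 was 11 without ChLO 3 (12.4% of all genes), 3 without ChLO 2 (2.77%) and 2 without WT 2 (4.12%). The difference between this list and the 37 ER genes was not tested. The stellate and myeloid marker signals were high in the same arrays, ChLO 1 and ChLO 2, and their part in the PERK values was not tested.

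**Figure D5:**
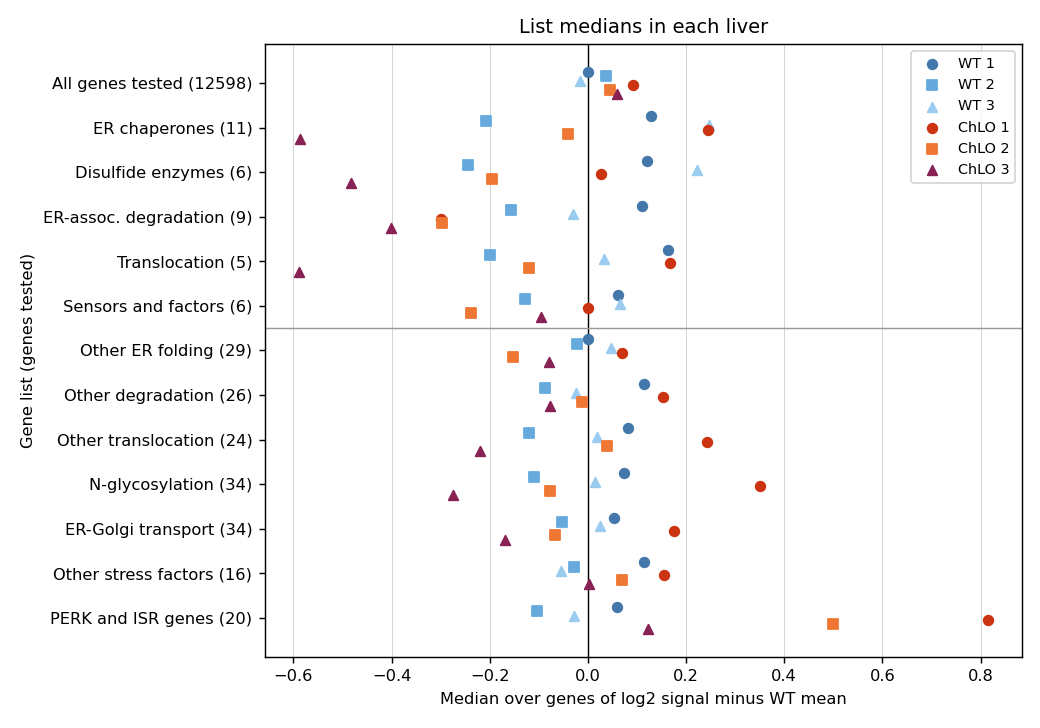
Median over the genes of each list of the log2 signal minus the WT mean (horizontal axis), in each array, for all genes tested, the 5 roles of the ER genes (above the grey line) and 7 lists of related genes (below it; tested genes in brackets; ISR, integrated stress response). ChLO 3 lies at -0.59 for the ER chaperones, and ChLO 1 at 0.82 for the PERK list.

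Plasma cells, which are also rich in ER, and B cells were looked for by 11 markers with a named probe set. Of these, 4 were under the filter, Cd79a, Tnfrsf17, Pou2af1 and Irf4. The summed linear signal of the 7 others was 5229 to 8934 in WT and 7724 to 10297 in ChLO, highest in ChLO 3, most of it from Sdc1, which hepatocytes also express. Jchain read 6.38, 8.17 and 8.08 in WT and 7.44, 9.03 and 7.18 in ChLO.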

How the data were processed

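Total RNA from frozen liver was hybridized to Affymetrix 3′ arrays, 1 array per mouse, per the labels. The authors deposited log2 signals of 45101 probe sets, and MAS5 is named in the submitters' processing notes without version or parameters. That each array was scaled was read from the deposited values: the linear mean is 500.0 in all 6 once 2% is trimmed from each end. Detection calls were not used here. The precision is limited by the 3 arrays per group.

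Gene names came from the annotation of the array platform. Ero1l and Ero1lb were matched through synonyms in a mouse gene table. Control probe sets and probe sets under the 40th percentile of mean log2 signal (5.50) were left out, and the brightest probe set stood for each gene. The 12598 genes were tested across all genes with limma 3.58.1 in R 4.3.3 (lmFit, eBayes with trend), adjusted by Benjamini-Hochberg. SE is the moderated standard error. The p-values set the difference between groups against the spread between mice within a group, which eBayes moderates with the other genes tested. The procedure was tested on simulated data. The genes and lists were chosen with earlier results of these data known. All 37 are named whatever their values, and of each related list the 3 genes with the smallest p. Other genes named, such as Mlxipl, Alb, Jchain, Cpa1 and Ctrb1, were chosen after their values were seen. Both groups use the replicate numbers 1 to 3. Deviations of arrays with one number correlated at 0.30, -0.17 and 0.06, and arrays were not paired by number.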

Additional observations from a re-analysis of the deposited data

How the results depend on the processing

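No ER gene passed an adjusted p of 0.05 with limma under any of 17 alternatives (quantile normalization, equal medians, spike-in scaling, other filters, a pseudocount of 32, eBayes without trend or robust, the mean of probe sets, no shared probe sets, the replicate block, and each array left out). Of all genes tested, 302 passed it without ChLO 3, 7 with the pseudocount of 32 and 4 without ChLO 1. With no filter and with no shared probe sets 3 each passed, with the replicate block 1, and in the other alternatives 0. The number of ER genes lower at an unadjusted p was 2 to 4 in all 17 alternatives. With the replicate number as a block it was 4, with 0 past an adjusted p of 0.05, and the block moved no count of ER genes by over 1.5 times. The number higher was 0 except without ChLO 3, where it was 2, so leaving out single arrays gave 0 to 2. Genes with every ChLO array below every WT array numbered 3 with equal medians (5.50% of all genes), 1 with spike-in scaling (2.17%) and 5 to 11 when an array was left out (8.64% to 16.0%). Those above numbered 2 with spike-in scaling (21.1%), 1 without shared probe sets (9.05%), and 0 to 3 when an array was left out (12.7% to 23.3%). Spike-in scaling moved the median difference from -0.13 to 0.12, while all genes tested moved to 0.31. Leaving out an array gave medians from -0.29 to -0.05. The count of ER genes with ChLO 3 below every WT array was itself added after seeing the data. Recomputed under the same alternatives, where they keep ChLO 3, it was 22 to 31, and the share of all genes was 18.0% to 31.7%. Of 37 genes, 12 kept the sign of their difference in all 17 alternatives and 25 changed it in at least 1. Of 629 recomputed differences, 610 moved by less than the spread between replicates. The 3 arrays a group limit what can be called.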
